A study of Homo sapiens with 8 samples.

Results

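The myeloma surface antigens described here, 10 in number, were followed by RNA sequencing in ARP1 and H929, human lines of multiple myeloma, a cancer of plasma cells. The 10 genes were listed by name as plasma cell surface molecules that are targets or candidate targets of therapy: GPRC5D, TNFRSF17, TNFRSF13B, SDC1, CD38, SLAMF7, FCRL5, ITGB7, LY9 and CD52. They were found by joining the 88209 transcripts measured to genes, and 40 transcripts belonged to them. All 10 passed the filter on low values, among 14905 tested genes of 24351. Each line was listed in 4 genotypes: CHEK1 overexpression, the control of overexpression, CHEK1 knockdown and the control of knockdown. CHEK1 encodes the checkpoint kinase that keeps a cell from dividing while its DNA is damaged or still being copied. Every line and genotype had 1 library, so the 8 libraries gave n = 2 lines per genotype and n = 4 libraries per line. The sources used here do not give how CHEK1 was raised or lowered, what each control carried or whether cells were clones or pools. No label tells whether libraries came from separate cultures, so a p-value speaks only of the spread between these 8, which may be technical.

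These molecules sit on the surface of plasma cells and are used to kill or mark myeloma cells. BCMA, the product of TNFRSF17, and TACI, the product of TNFRSF13B, are receptors for the survival factors BAFF and APRIL. GPRC5D is an orphan receptor bound by bispecific antibodies and CAR T cells, CD38 is an ectoenzyme that consumes NAD and is the target of daratumumab, and SLAMF7 is the target of elotuzumab. SDC1, or CD138, is the heparan sulfate proteoglycan by which plasma cells are sorted. FCRL5 is an Fc receptor-like molecule that binds immunoglobulin, ITGB7 is the beta subunit of integrins that bind MAdCAM-1 and E-cadherin, LY9 is a SLAM receptor, and CD52 is a short GPI-anchored glycopeptide bound by alemtuzumab.

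Levels are FPKM, which counts fragments against transcript length and against the library total, and a gene level is the sum over its transcripts. FPKM summed to 631871 to 693299 per library, and the read depth is unknown, so no counting interval is given. CHEK1 itself stood at 114 FPKM in the ARP1 overexpression library, against 78.2 in its control, and at 107 in the H929 overexpression library, against 81.6 in its control. It stood at 51.6 FPKM in the labelled-knockdown library of ARP1, against 61.0 in its control, but at 84.8 in the labelled-knockdown library of H929, against 80.7 in its control. The H929 library therefore did not have lower CHEK1 than its control, and directions drawn from it rest on a label that the transcript did not follow. All chosen plasma cell markers but SLAMF7 were expressed in both lines. XBP1, the transcription factor of the secretory program, stood at 425 to 976 FPKM and IRF4 at 202 to 713. PRDM1 stood at 126 to 176, MZB1 at 206 to 548 and POU2AF1 at 18.9 to 40.25. SDC1, CD38 and TNFRSF17 were at least 150, 17.8 and 23.0 FPKM in every library. SLAMF7 was at least 13.3 FPKM in ARP1 libraries but at most 0.201 in H929 libraries. Among B cell genes MS4A1 and CD22 reached at most 0.302 and 0.0450 FPKM. CD79A ranged over 0.929 to 3.56 FPKM in ARP1 libraries and over 0.0605 to 0.777 FPKM in H929 libraries. Markers of other cells were mostly low. Of 10 T and NK cell markers only GNLY reached 1 FPKM, CD3D, CD3G and NKG7 were listed at 0 throughout, and the summed level was 0.807 to 1.46 in ARP1 and 0.998 to 14.4 in H929. Of 8 myeloid markers 2 reached 1 FPKM, of 9 markers of stroma and epithelium 4, of 6 adipocyte markers 0 and of 5 erythroid markers 1. The summed level of the stroma and epithelium markers was 1.62 to 5.49 FPKM over ARP1 libraries and 7.21 to 17.1 FPKM over H929 libraries, and that of the myeloid markers 1.21 to 2.46 and 1.91 to 2.89.

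**Figure D1:**
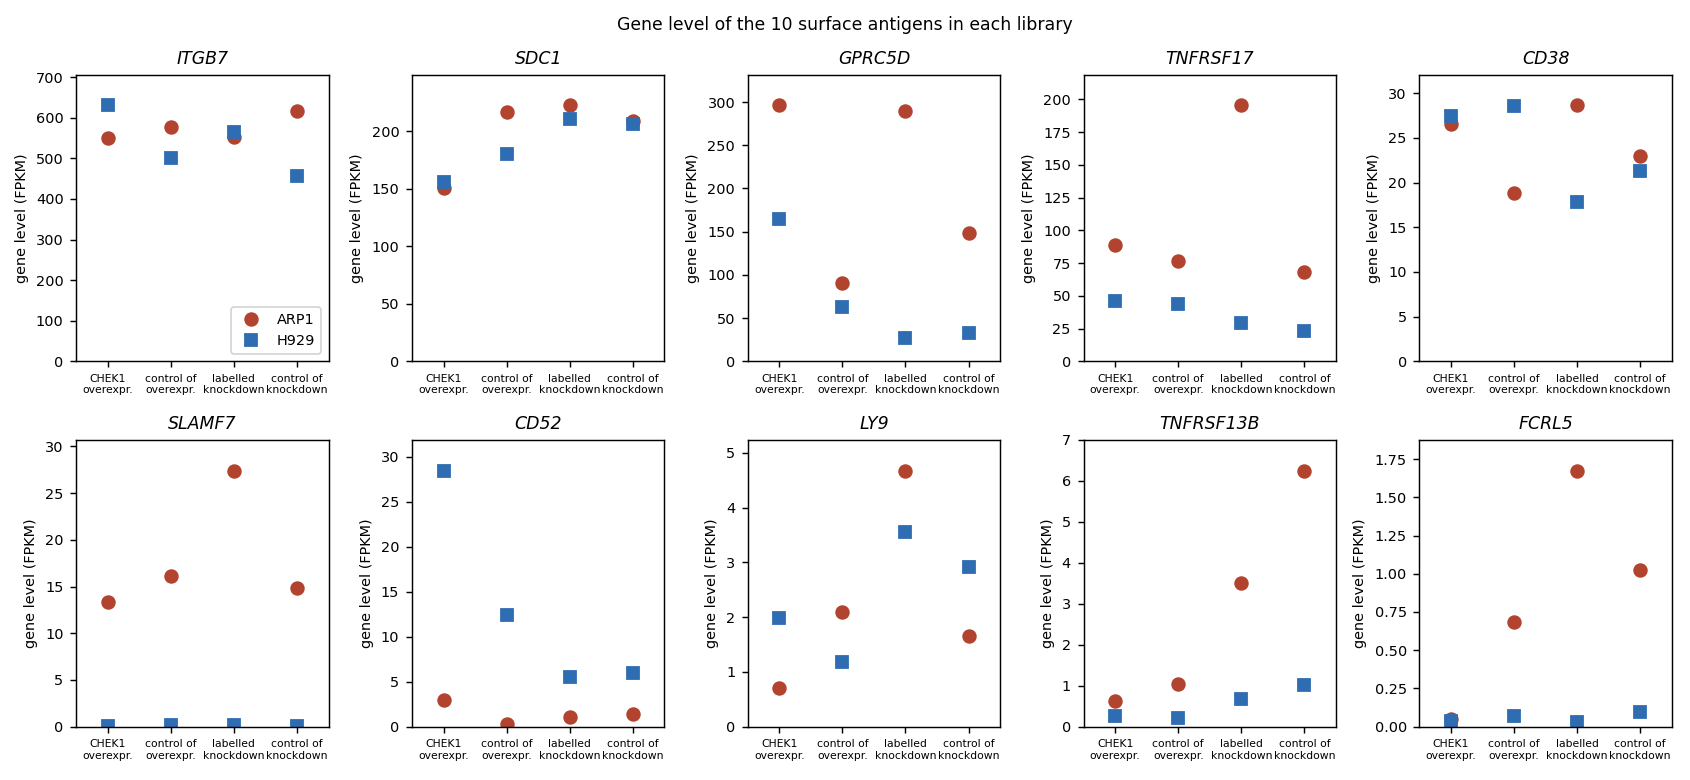
Gene level in FPKM (vertical axes, linear, from 0) of each of the 10 surface antigens in the 8 libraries, ordered by genotype along the horizontal axis, with circles for ARP1 and squares for H929. SLAMF7 sits between 13.3 and 27.4 in ARP1 and under 0.21 in H929, and CD52 is higher in every H929 library than in any ARP1 library.

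The molecules spanned more than 3 orders of magnitude in level. ITGB7 was the highest, at 556 ± 57.1 FPKM over the libraries (SD, n = 8), followed by SDC1 at 194 ± 28.1, GPRC5D at 139 ± 107, TNFRSF17 at 71.2 ± 55.2 and CD38 at 24.0 ± 4.4. SLAMF7 averaged 9.03 ± 10.4, CD52 7.26 ± 9.41, LY9 2.34 ± 1.31, TNFRSF13B 1.70 ± 2.12 and FCRL5 0.459 ± 0.617. In this order only the ranges of ITGB7 and SDC1 lay apart, and every other neighbouring pair overlapped. ITGB7, SDC1 and CD38 varied little, while GPRC5D, CD52 and LY9 were the members whose 4 libraries spanned at least 2-fold on the log2(FPKM + 1) scale within each line, 3 of 10 against 6.88% of all tested genes. FCRL5 and SLAMF7 passed the filter only through ARP1, where 2 and 4 libraries reached 1 FPKM. TNFRSF13B reached it in 4 libraries, and the only H929 library among them was the control of knockdown, at 1.02 FPKM. TNFRSF13B thus also passed the filter only through ARP1. LY9 and CD52 reached 1 FPKM in 7 libraries.

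The sequences that the results below turn on are shown first. For SLAMF7 the lines differed most, and its transcripts in ARP1 differ by an exon of the cytoplasmic tail: the form SLAMF7-203 holds exon 5, at chr1:160751345-160751448 on the plus strand of GRCh38, and the form SLAMF7-201 skips it. The exon is coding, has 104 bases and shifts the reading frame where it is skipped. Capitals mark its 2 in-frame tyrosine codons. The sequence was read from the GENCODE release 29 transcripts.

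SLAMF7-203 exon 5: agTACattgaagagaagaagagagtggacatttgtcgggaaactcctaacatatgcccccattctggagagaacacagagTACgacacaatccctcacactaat

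GPRC5D and CD52 were the members with the largest ratios under CHEK1 overexpression, so their promoters are shown, as RefSeq gives them on GRCh38.p14, from 250 bases before to 50 after the gene's start. The GPRC5D window is chr12:12952121-12952420 on the minus strand, and its GC content is 45.0%, against a median of 58.7% over all 35116 promoters. The CD52 window is chr1:26317708-26318007 on the plus strand, with 55.3% GC. Capitals mark every match to 7 motifs searched on both strands: TATAAA, the E-box CANNTG, the interferon response core (GAAA, any 2 bases, GAAA), the unfolded protein response core CCACG, the ATF4 element TGATGNAAT, the NF-kB pattern (GGGA, any 4 bases, CC) and the ETS-IRF core (GGAA, any 2 bases, GAAA). The last shares its GAAA with the interferon core and can overlap it.

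GPRC5D promoter: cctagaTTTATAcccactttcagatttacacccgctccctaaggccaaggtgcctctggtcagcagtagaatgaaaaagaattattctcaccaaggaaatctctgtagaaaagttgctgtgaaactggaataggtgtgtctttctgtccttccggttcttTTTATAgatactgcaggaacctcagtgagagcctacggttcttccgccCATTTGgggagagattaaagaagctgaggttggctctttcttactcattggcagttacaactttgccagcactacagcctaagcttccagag
CD52 promoter: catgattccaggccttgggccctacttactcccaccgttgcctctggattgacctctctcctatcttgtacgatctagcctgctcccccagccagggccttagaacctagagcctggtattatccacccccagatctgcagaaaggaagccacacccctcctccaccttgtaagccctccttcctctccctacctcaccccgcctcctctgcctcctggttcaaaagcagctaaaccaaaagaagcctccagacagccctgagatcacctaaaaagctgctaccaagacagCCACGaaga

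In the GPRC5D window TATAAA matched on the reverse strand at positions -244 and -90 from the start, and the E-box at -42. In the CD52 window CCACG matched at 42 bases after the start. TATAAA is held by 11.5% of all promoters of that length, the E-box by 68.7% and CCACG by 38.1%. The other patterns are held by 3.57% (interferon core), 0.991% (ATF4 element), 25.6% (NF-kB pattern) and 2.82% (ETS-IRF core), and these letters are not in either window. The promoter table held 7 of the 10 members.

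SLAMF7, GPRC5D, TNFRSF17 and TNFRSF13B were higher in ARP1 than in H929, and CD52 was lower. Limma called these 5 of 10 members at an adjusted p under 0.05 between ARP1 and H929, 4 higher and 1 lower, where it called 27.1% of all tested genes, 13.7% higher and 13.4% lower. The levels of SDC1, CD38, ITGB7, LY9 and FCRL5 did not pass. The count includes SLAMF7 and TNFRSF13B, which entered the test through ARP1 alone, the line where both were higher. In bulk RNA, fewer cells with a transcript and less of it per cell cannot be told apart.

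SLAMF7 stood at 13.3 FPKM in the ARP1 overexpression library, 16.1 in its control, 27.4 in the labelled-knockdown library of ARP1 and 14.9 in its control. In H929 the same libraries gave 0.0796, 0.201, 0.196 and 0.0778 FPKM. The ranges lay apart, with a mean of 17.9 ± 6.42 FPKM in ARP1 and 0.139 ± 0.0692 in H929 (SD, n = 4 each), and the H929 levels are too low for a firm fold. The limma log2 fold change on the log2(FPKM + 1) scale, which understates changes of low genes, was 4.0 (SE 0.18, adjusted p = 0.000147). SLAMF7 passed the filter on low values only through the ARP1 libraries, so it could enter the test only by differing; with no filter its adjusted p was 0.00574 (range over 22 alternatives 4.72e-06 to 0.00574). SLAMF7 lies at chr1:160739057-160754821 on the plus strand, near its relative LY9 (chr1:160796074-160828261).

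CD52 ran the other way. It stood at 2.92 FPKM in the ARP1 overexpression library, 0.313 in its control, 1.08 in the labelled-knockdown library of ARP1 and 1.42 in its control. In H929 it stood at 28.4, 12.4, 5.53 and 5.94 FPKM, so its lowest H929 level lay above its highest ARP1 level. The mean was 1.43 ± 1.10 FPKM in ARP1 and 13.1 ± 10.7 in H929 (SD, n = 4 each), and the log2 fold change was -2.36 (SE 0.33, limma adjusted p = 0.0046). Among T and NK cell markers, GNLY also stood highest in the H929 overexpression library, at 14.2 FPKM, while CD3D and NKG7 were listed at 0 in all libraries. The part of such cells in the CD52 level was otherwise not tested.

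TNFRSF17 stood at 88.6 FPKM in the ARP1 overexpression library, 76.2 in its control, 195.5 in the labelled-knockdown library of ARP1 and 68.4 in its control. In H929 it stood at 45.6, 43.6, 28.8 and 23.0 FPKM. Every ARP1 library was above every H929 library, and the log2 fold change was 1.50 (SE 0.30, limma adjusted p = 0.0144). GPRC5D averaged 206 ± 103 FPKM in ARP1 and 71.8 ± 63.6 in H929 (SD, n = 4 each), with overlapping ranges, since the H929 overexpression library at 164 FPKM exceeded both ARP1 controls. Its log2 fold change was 1.72 (SE 0.44, limma adjusted p = 0.0316). TNFRSF13B averaged 2.86 ± 2.59 FPKM in ARP1 and 0.539 ± 0.387 in H929 (SD, n = 4 each), also with overlap, and its log2 fold change was 1.10 (SE 0.27, limma adjusted p = 0.0271). The GPRC5D call was lost without the ARP1 or the H929 control of knockdown (adjusted p = 0.103 and 0.102), with no filter (0.0951) and without the genotype term (0.0547), which is 4 of 22 alternatives (range 0.0175 to 0.103). That of TNFRSF17 was lost without either control of knockdown (0.0522 and 0.0521) and with no filter (0.0552), 3 of 22 alternatives (range 0.006 to 0.0552). The TNFRSF13B call was lost under 11 of 21 alternatives (range 0.00942 to 0.104), and this gene passed the filter on low values only through ARP1.

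Ranges did not overlap between the lines for TNFRSF17 and SLAMF7 on the higher side and CD52 on the lower, 3 of 10 members, where 27% of all tested genes had ranges apart, 13.3% higher and 13.7% lower. SDC1, CD38 and ITGB7 were close in level. SDC1 averaged 199.5 ± 33.3 FPKM in ARP1 and 188 ± 25.5 in H929, CD38 24.3 ± 4.32 and 23.8 ± 5.09, and ITGB7 574 ± 31.1 and 539 ± 76.2 (SD, n = 4 each). Limma gave log2 fold changes of 0.08 (SE 0.09, adjusted p = 0.558) for SDC1, 0.04 (adjusted p = 0.911) for CD38 and 0.10 (adjusted p = 0.567) for ITGB7. LY9 averaged 2.28 ± 1.70 FPKM in ARP1 and 2.41 ± 1.04 in H929 (log2 fold change -0.14, adjusted p = 0.731). FCRL5, which was low in both lines, averaged 0.860 ± 0.678 FPKM in ARP1 and 0.0576 ± 0.0294 in H929, with a log2 fold change of 0.74 that did not pass (adjusted p = 0.0890).

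**Figure D2:**
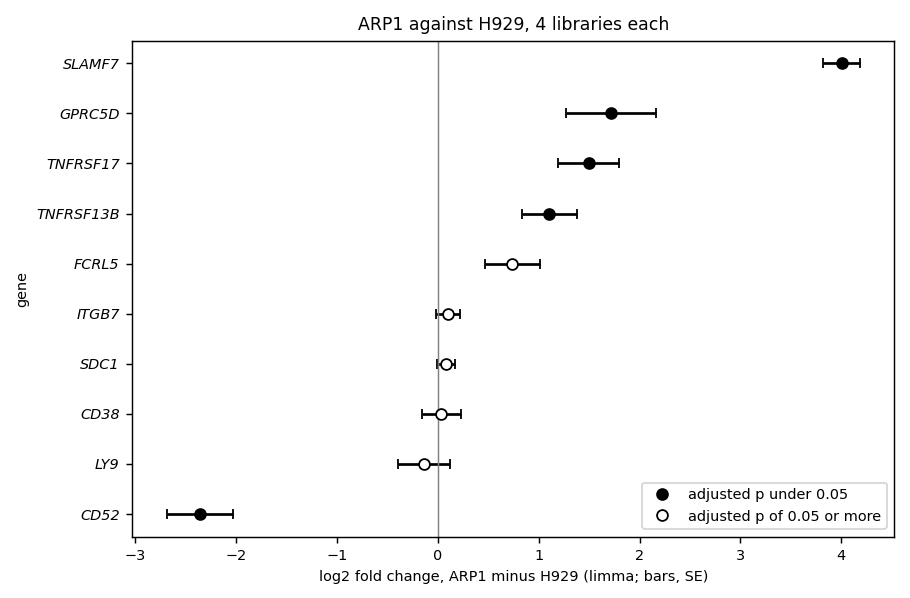
Limma log2 fold change of ARP1 over H929 on the log2(FPKM + 1) scale (horizontal axis) for each antigen (rows), with bars of 1 SE and filled points where the adjusted p was under 0.05. SLAMF7, GPRC5D, TNFRSF17 and TNFRSF13B lie on the ARP1 side and CD52 on the H929 side.

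Of the SLAM family and its adaptors 3 of 11 genes were tested. CD48, the ligand of CD244, was abundant in both lines at 67.8 to 211 FPKM, while SLAMF1, SLAMF6, CD244 and CD84 stayed under 0.22 FPKM and SH2D1B, the adaptor EAT-2 that couples SLAMF7 to signalling in NK cells, under 0.23. Of the BAFF and APRIL ligands, receptors and TRAF adaptors 12 of 14 were tested, 3 of them called higher, TNFRSF17 and TNFRSF13B included, and 2 lower in ARP1. Over all tested genes 13.7% were called higher and 13.4% lower. TNFRSF13C, the BAFF receptor, ranged over 3.45 to 5.44 FPKM in ARP1 libraries and over 6.61 to 7.89 FPKM in H929 libraries. The ligands were near the floor, with TNFSF13 at most 1.10 and TNFSF13B at most 1.70 FPKM. Of the GPRC5 receptors GPRC5D alone was tested, with GPRC5A, GPRC5B and GPRC5C at most 0.129, 1.54 and 0 FPKM.

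Of 32 other molecules targeted in myeloma and B cells 22 were tested, and 8 were called higher and 1 lower in ARP1. Over all tested genes 13.7% were called higher and 13.4% lower, and the list counts below stand beside the same shares. IL6R, the receptor of the myeloma growth factor interleukin-6, was higher in ARP1 (log2 fold change 3.05, SE 0.44, adjusted p = 0.00501), as were CD74, the invariant chain (1.91, adjusted p = 0.000952), LILRB4 (0.51, adjusted p = 0.0252) and the adhesion molecule ICAM1 (2.02, adjusted p = 0.000691). ICAM1 and CD79A, both called higher, were at most 0.579 and 0.777 FPKM in H929. They passed the filter on low values only through ARP1, the line where they were high. NCAM1, or CD56, was lower in ARP1, at 0.415 to 2.48 FPKM, than in H929, at 10.9 to 24.7 FPKM (log2 fold change -2.90, adjusted p = 0.000393). Among 12 tested integrin subunits and partners 1 was called higher, again ICAM1, and 4 lower. ITGA4, which pairs with ITGB7 in the integrin of gut homing, ranged over 141 to 147.5 FPKM in ARP1 libraries and over 170.1 to 209 FPKM in H929 libraries. ITGAE, the other partner, was near 1 FPKM in both lines. Of the 10 genes in the list of plasma cell genes 7 were called higher in ARP1 and 0 lower, POU2F2 and CAV1 among them (log2 fold changes 1.67 and 1.47, adjusted p = 0.00125 and 0.00245).

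Between CHEK1 overexpression and its control no antigen passed the test. Limma called 0 of 10 members, where 0.00671% of all tested genes were called, a single gene lower, and 663 genes, or 4.45%, had an unadjusted p under 0.05. GPRC5D, CD52 and SDC1 were the members with an unadjusted p under 0.05. GPRC5D and CD52 had been singled out in earlier results of this contrast, so their values are a description. The members' median log2 fold change was -0.0011, against -0.0077 over all tested genes, 5 of 10 were positive and 6 had the same direction in both lines, where 58.1% of all tested genes did.

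GPRC5D stood at 296 FPKM in the ARP1 overexpression library, against 90.4 in its control, and at 164 in the H929 overexpression library, against 63.3 in its control. It was 3.28-fold and 2.59-fold the control, and the overexpression library was above both controls of its line in each line. The labelled-knockdown library of ARP1, at 289 FPKM, was nevertheless almost as high. The log2 fold change was 1.53 (SE 0.63, limma adjusted p = 0.994), and over 24 alternatives it ran from 0.72 to 2.34 with adjusted p of 0.317 to 1. CD52 stood at 2.92 FPKM in the ARP1 overexpression library, against 0.313 in its control, and at 28.4 in the H929 overexpression library, against 12.4 in its control. Here too the overexpression library was the highest of its line in each line, and the log2 fold change was 1.36 (SE 0.46, limma adjusted p = 0.994). GPRC5D and CD52 were the 2 of 10 members at least 2-fold higher in both lines on the log2(FPKM + 1) scale, against 0.228% of all tested genes. Both had been singled out in this contrast, so this share is no measure of an excess. The ARP1 control of CD52 was under 1 FPKM and gives no firm fold. Against the control of knockdown, the log2 ratios of GPRC5D and CD52 were 0.99 and 0.70 in ARP1 and 2.28 and 2.08 in H929. The markers of stroma and epithelium did not move together: KRT18 was 10.5 FPKM in the H929 overexpression library, against 3.78 in its control, but 1.17 in the ARP1 overexpression library, against 5.03 in its control. KRT8 was 3.16 FPKM in the H929 overexpression library, against 4.28 in its control, and EPCAM was listed at 0 in both overexpression libraries and their controls.

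SDC1 went the other way, with 150.4 FPKM in the ARP1 overexpression library, against 216 in its control, and 156 in the H929 overexpression library, against 180.2 in its control. Each overexpression library was the lowest of its line. The log2 fold change was -0.37 (SE 0.13, limma adjusted p = 0.994), so the difference did not pass. CD38 stood at 26.6 FPKM in the ARP1 overexpression library, against 18.9 in its control, but at 27.4 in the H929 overexpression library, against 28.6 in its control. TNFRSF17 (log2 fold change 0.14), ITGB7 (0.13), TNFRSF13B (-0.13), SLAMF7 (-0.20), LY9 (-0.20) and FCRL5 (-0.36) had smaller values, none past the test.

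**Figure D3:**
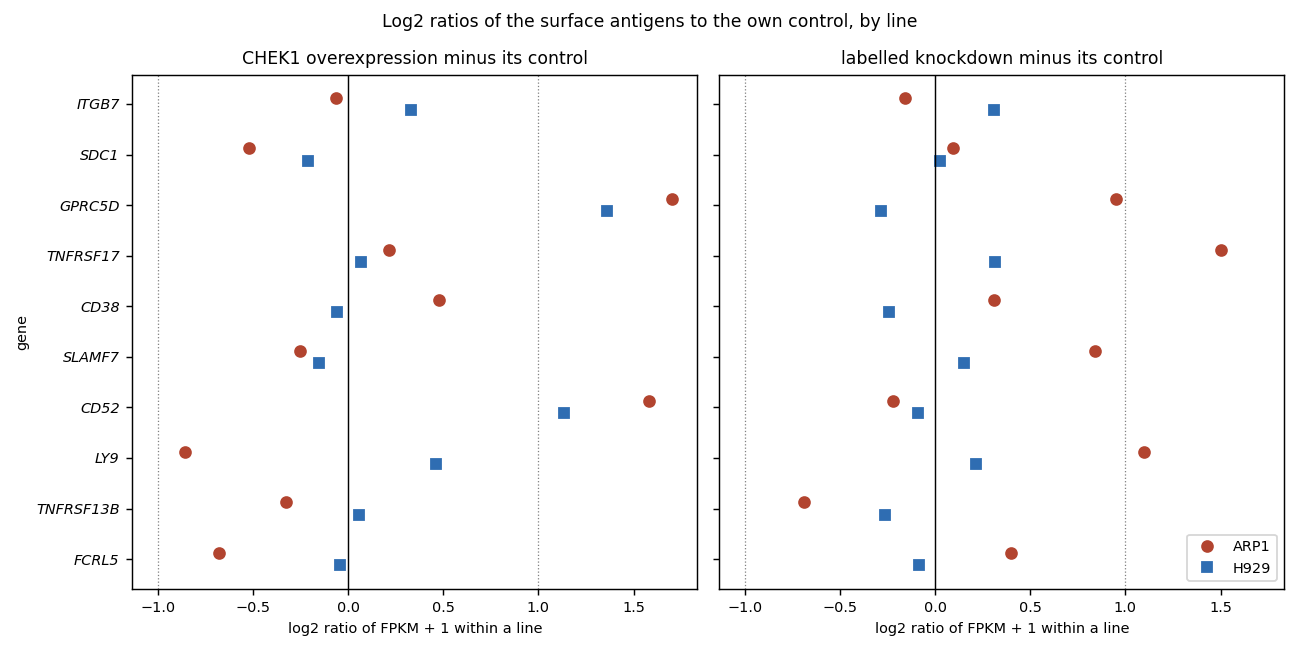
Log2 ratio of FPKM + 1 within a line (horizontal axes) of each antigen (rows) for overexpression minus its control (left) and for the library labelled knockdown minus its control (right), with circles for ARP1 and squares for H929, 1 library against 1. GPRC5D and CD52 lie beyond 1 in both lines on the left, and on the right the ARP1 and H929 points of GPRC5D lie on opposite sides of 0.

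Between the libraries labelled knockdown and their controls no antigen passed either. Limma called 0 of 10 members, where 0.0134% of all tested genes were called, 2 genes lower, and 1362 genes, or 9.14%, had an unadjusted p under 0.05. The members' median log2 fold change was 0.12, against -0.02 over all tested genes, with 8 of 10 positive and 6 of 10 in the same direction in both lines, where 56.1% of all tested genes were. In ARP1 TNFRSF17 and LY9 were at least 2-fold higher than the control on the log2(FPKM + 1) scale, 2 of 10 members against 4.54% of all tested genes. In H929 0 of 10 members were, against 1.85%.

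TNFRSF17 stood at 195.5 FPKM in the labelled-knockdown library of ARP1, against 68.4 in its control, and at 28.8 in the labelled-knockdown library of H929, against 23.0 in its control. These are 2.86-fold and 1.25-fold. The log2 fold change was 0.91 (SE 0.43, limma adjusted p = 0.568). Without the H929 library, whose CHEK1 was not lower, limma gave 1.72 with adjusted p = 0.0261 (range over 23 alternatives 0.0261 to 1), with the lone ARP1 library assumed to vary like the other groups, and called 1005 genes instead of 2. SLAMF7 stood at 27.4 FPKM in the labelled-knockdown library of ARP1, against 14.9 in its control, and LY9 at 4.68, against 1.65. In H929 SLAMF7 was under 0.21 FPKM in both libraries, and LY9 was 3.55 in the library labelled knockdown, against 2.92 in its control.

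GPRC5D stood at 289 FPKM in the labelled-knockdown library of ARP1, against 149 in its control, but at 26.9 in the labelled-knockdown library of H929, against 33.0 in its control. The gene sums went opposite ways, and the log2 fold change was 0.33 (SE 0.63, limma adjusted p = 0.866). In H929 the forms did not agree: GPRC5D-203, the main form, was 19.1 FPKM in the labelled-knockdown library, against 18.7 in its control, GPRC5D-201 was 5.70, against 1.13, and GPRC5D-202 alone was lower, at 2.03, against 13.1. With both controls of a line pooled, the effect in ARP1 exceeded that in H929 by 2.05 on the log2 scale for GPRC5D (SE 0.66, limma adjusted p = 0.618) and by 1.56 for TNFRSF17 (SE 0.53, limma adjusted p = 0.624). Neither passed, 0 genes were called for that difference, and 7.79% had an unadjusted p under 0.05. SDC1, CD38, ITGB7 and CD52 had log2 fold changes between -0.15 and 0.07, and TNFRSF13B had -0.48 (SE 0.39, adjusted p = 0.681), which turned to 0.81 against the other control of the line.

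The labelled-knockdown library of ARP1 also held the highest IRF4, at 713 FPKM, against 331 in its control, and the highest CD48, at 211, against 137 in its control. IRF4 is the transcription factor on which myeloma cells depend. In H929 IRF4 was 221 FPKM in the library labelled knockdown, against 202 in its control. How far the antigens follow the state of that 1 library was not tested.

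The controls of a line also stood apart for some of these antigens. GPRC5D was 90.4 FPKM in the ARP1 control of overexpression, against 149 in the control of knockdown, and 63.3 in the H929 control of overexpression, against 33.0 in the control of knockdown. The order of the controls was thus opposite in the lines. CD52 was 0.313 FPKM in the ARP1 control of overexpression, against 1.42 in the control of knockdown, and 12.4 in the H929 control of overexpression, against 5.94 in the control of knockdown. TNFRSF13B was 1.05 FPKM in the ARP1 control of overexpression, against 6.25 in the control of knockdown, and 0.202 in the H929 control of overexpression, against 1.02 in the control of knockdown. In both lines this receptor was therefore lowest in the pair of libraries that belong to overexpression, 0.634 and 1.05 FPKM in ARP1 and 0.251 and 0.202 FPKM in H929. The libraries labelled knockdown held 3.49 FPKM of it in ARP1 and 0.681 in H929. Limma called 0 of 10 members between the controls, where 0.0537% of all tested genes were called.

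A single transcript held over 80% of the level of 5 antigens. CD38-201 held 98.8% of the CD38 sum, TNFRSF17-201 96.3%, SDC1-201 87.7% and ITGB7-201 84.4%, and CD52 had 1 transcript, of 468 nt. GPRC5D, SLAMF7, FCRL5 and TNFRSF13B had 3 main transcripts each, with at least 10% of the sum, and LY9 had 2, LY9-204 with 49.5% and LY9-205 with 34.5%. At 25% the number fell to 1 for GPRC5D and SLAMF7.

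GPRC5D-203 held 65.3% of the GPRC5D sum. It is a model of 448 nt with 2 exons, which begins at the gene's upstream exon and ends within the coding sequence after 362 coding bases, whereas GPRC5D-201 (1038 nt) and GPRC5D-202 (903 nt) begin at the start codon. GPRC5D-203 stood at 197 FPKM in the ARP1 overexpression library, against 61.4 in its control, and at 110.0 in the H929 overexpression library, against 39.0 in its control. GPRC5D-201 stood at 41.5 FPKM, against 10.8, in ARP1 and at 21.0, against 10.7, in H929. All main forms were thus higher in the overexpression library of each line. With transcripts weighted by length the gene was 3.32-fold the control in ARP1 and 2.47-fold in H929. The gene lies at chr12:12940775-12952147 on the minus strand and overlaps the antisense gene GPRC5D-AS1, which stood at 0.49 to 5.37 FPKM. The sources used here do not say whether the counting used strand. If it did not, reads from the overlap of such opposite-strand genes cannot be told apart. The same holds for CD52 and UBXN11, TNFRSF17 and NPIPB2, and ITGB7 and ZNF740. TNFRSF13B overlaps the pseudogene TBC1D27P on the same strand, which counting by strand would not part.

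The shares of the SLAMF7 forms varied between the ARP1 libraries. SLAMF7-203, which holds the exon shown above and codes for the long cytoplasmic tail, stood at 24.2 FPKM in the labelled-knockdown library of ARP1, against 5.68 in its control, and took 88.1% of the sum, against 38.2%. In the ARP1 overexpression library it stood at 6.64 FPKM, or 49.8% of the sum, against 6.50, or 40.4%, in its control. SLAMF7-201, which lacks the exon and its tyrosine codons, moved over a smaller range, at 2.28 FPKM in the labelled-knockdown library of ARP1, against 2.46 in its control, and at 4.39 in the ARP1 overexpression library, against 2.89 in its control. The third main form, SLAMF7-210 of 708 nt, stood at 0.119 FPKM in the labelled-knockdown library of ARP1, against 4.33 in its control. The share of each form is an estimate from the authors' quantification of paired reads, and with 1 library per genotype it has no replicate check. In human NK cells the long form recruits EAT-2 through a tyrosine of its tail and the short form does not.

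**Figure D4:**
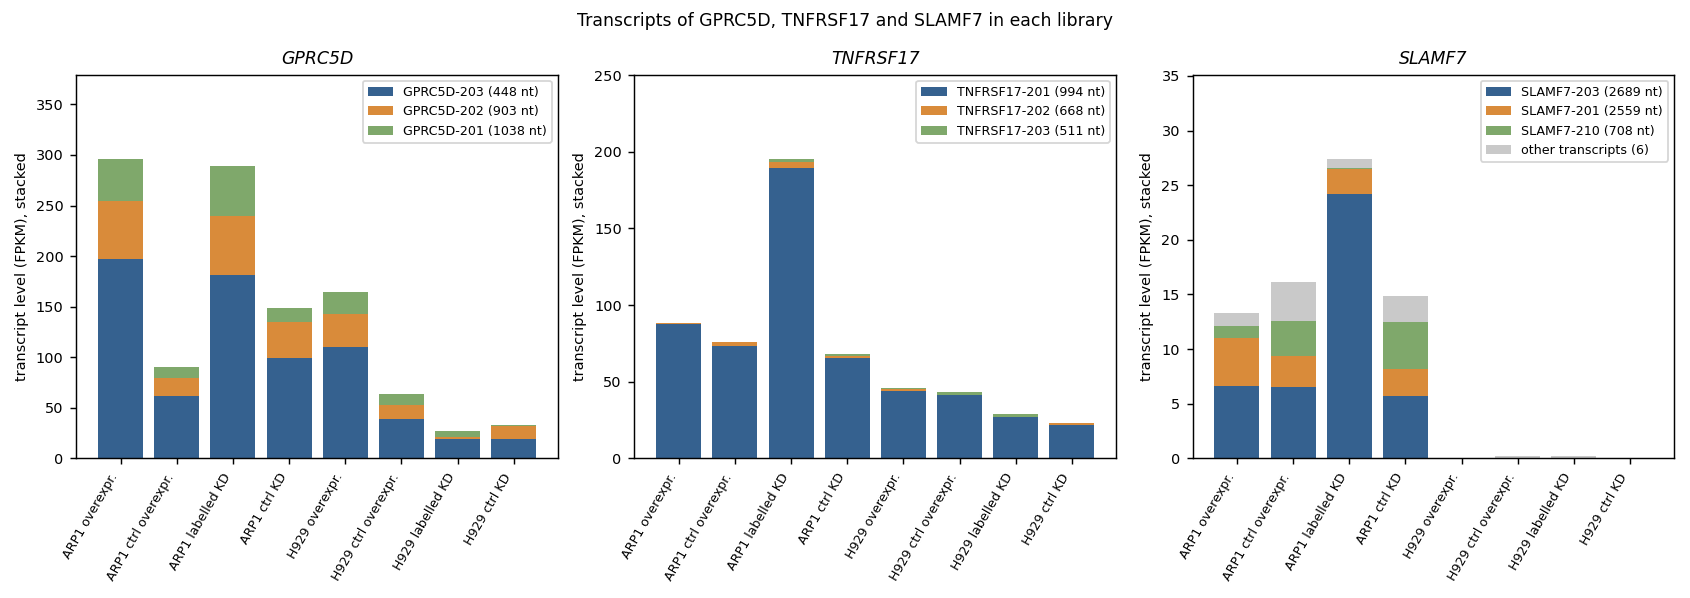
Stacked FPKM (vertical axes, linear, from 0) of the transcripts of GPRC5D, TNFRSF17 and SLAMF7 in the 8 libraries (horizontal axes), with transcript lengths in the legend. SLAMF7-203 fills 88.1% of the bar in the labelled-knockdown library of ARP1, and the short model GPRC5D-203 fills most of every GPRC5D bar.

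The genes nearest in pattern were sought for the 3 members that spanned at least 2-fold in each line. The measure was the mean absolute difference of log2(FPKM + 1), centred on the mean of each line, over the 8 libraries, among 9024 coding genes with a mean of at least 5 FPKM. For GPRC5D, whose own values lay 0.77 from their line means on average, the nearest were IL6R (0.22), CD52 (0.24) and KLF2 (0.30). For CD52 they were IL6R (0.19), GPRC5D (0.24) and S100A10 (0.27). For LY9 they were CBY1 (0.13), ORAI3 (0.15) and MSH5 (0.16).

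IL6R stood at 37.4 FPKM in the ARP1 overexpression library, against 16.2 in its control, and at 40.9 in the labelled-knockdown library of ARP1, against 32.1 in its control. In H929 it stood at 7.98 FPKM in the overexpression library, against 3.79 in its control, and at 0.909 in the library labelled knockdown, against 1.36 in its control. KLF2, a transcription factor of lymphocytes, stood at 71.1 FPKM in the ARP1 overexpression library, against 33.9 in its control, and at 65.2 in the H929 overexpression library, against 43.4 in its control. Both resembled GPRC5D in that the ARP1 overexpression library and the labelled-knockdown library of ARP1 were the highest of ARP1, while in H929 the overexpression library was the highest.

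**Figure D5:**
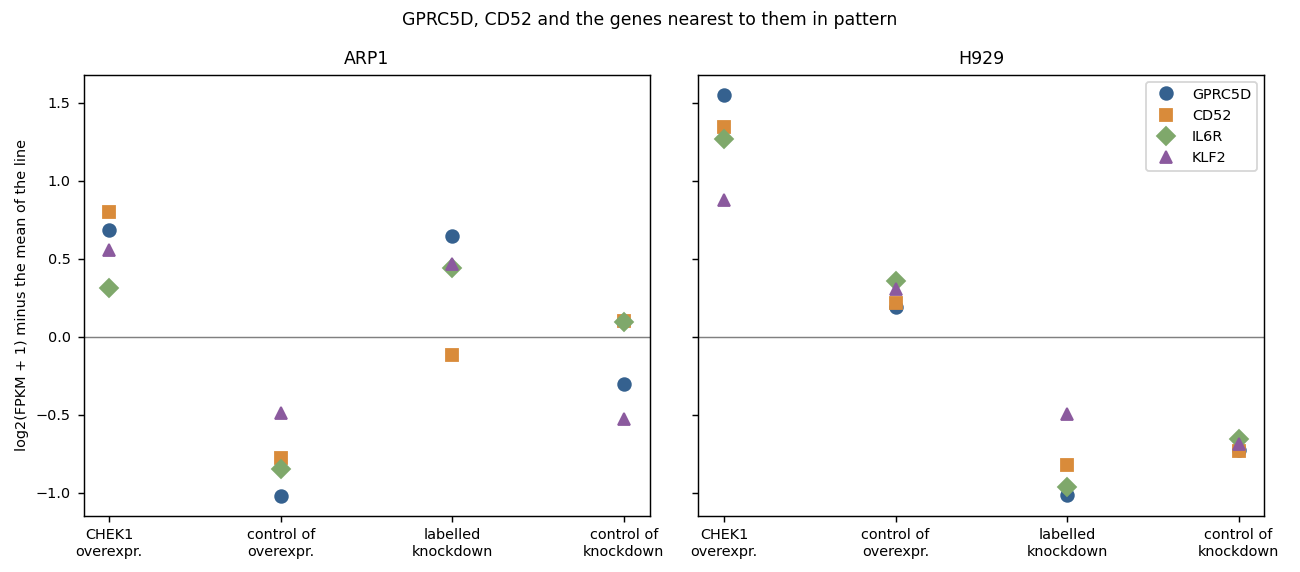
Log2(FPKM + 1) minus the mean of the line (vertical axis) of GPRC5D, CD52, IL6R and KLF2 in the 4 libraries (horizontal axes) of ARP1 (left) and H929 (right). In H929 the overexpression library is the highest for all 4 genes, and in ARP1 CD52 alone lies below its line mean in the library labelled knockdown.

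Genes that act with the antigens did not pass in either CHEK1 comparison. In the 13 gene lists beside the antigens, several of which hold antigens too, limma called 0 genes for overexpression or knockdown. Over the 12 of these lists with more than 1 tested gene, the median log2 fold change with overexpression ran from -0.28 (plasma cell genes) to 0.35 (complement regulators, CD52 included), against -0.0077 over all tested genes. In the knockdown comparison it ran from -0.21 (syndecans) to 0.49 (the SLAM family, 3 genes), against -0.016. Both ends rest on few genes, and the low end is negative through SDC4 alone, which is not one of the antigens. The tested syndecans were SDC1 (0.06) and SDC4 (-0.47), and the tested SLAM genes were SLAMF7, LY9 and CD48, with SLAMF7 itself as the median. Among the 6 gamma secretase subunits, the protease that sheds BCMA from the cell surface, PSENEN stood at 44.8 FPKM in the ARP1 overexpression library, against 68.3 in its control, and at 18.6 in the H929 overexpression library, against 33.5 in its control (log2 fold change -0.71, SE 0.13, adjusted p = 0.994). PSEN2 went the same way in both lines (-0.59, SE 0.17, adjusted p = 0.994). For the libraries labelled knockdown the subunit NCSTN had 0.26 (SE 0.13, adjusted p = 0.577), which did not pass the test. Of 18 tested genes of heparan sulfate synthesis and removal, HPSE, the heparanase that trims SDC1 chains, had -0.68 in the knockdown comparison (SE 0.19, adjusted p = 0.494), and XYLT1, which starts the chains, had 0.78 with overexpression (SE 0.55, adjusted p = 0.994).

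Among the other targets, CD74 stood at 14.4 FPKM in the ARP1 overexpression library, against 49.5 in its control, and 1.97 in the H929 overexpression library, against 11.4 in its control (log2 fold change -1.89, SE 0.23, adjusted p = 0.357). LILRB4, an inhibitory receptor, stood at 49.5 FPKM in the ARP1 overexpression library, against 28.9 in its control, and at 40.8 in the H929 overexpression library, against 23.3 in its control (0.77, SE 0.18, adjusted p = 0.994). NCAM1 had -0.90 (SE 0.25, adjusted p = 0.994). Among the 11 genes of the cereblon ligase and its drug substrates CRBN, the target of lenalidomide, had 0.36 with overexpression (SE 0.21, adjusted p = 0.994), and IKZF3, a substrate, had 0.45 in the knockdown comparison (SE 0.17, adjusted p = 0.538). CD55 and CD59, which guard cells from complement, had 0.34 in the knockdown comparison and 0.38 with overexpression, neither past the test (adjusted p = 0.678 and 0.994). In the syndecan family SDC4 had -0.47 in the knockdown comparison (SE 0.21, adjusted p = 0.562), and in the FCRL family, with 2 of 8 genes tested, FCRLB had -0.30 (SE 0.24, adjusted p = 0.675). NAPRT, of NAD supply, had -0.46 in the knockdown comparison (SE 0.23, adjusted p = 0.574).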

How the data were processed

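The authors deposited transcript FPKM for 8 poly(A) libraries, which the table calls means. Tools per the submitters' processing notes were Bowtie 0.12.2, HISAT2 2.0 and StringTie 1.3.0 with build mm8, although the identifiers are human; the sources used here do not give the human build. Read depth is unknown, so precision comes only from the spread between libraries. Per the labels' protocols, RNA quality was above a set limit, and the text mentions adipose tissue, whose markers were under 0.2 FPKM. Table columns were matched to samples by title.

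Transcripts were joined to GENCODE release 29 (GRCh38): 87707 matched, and the other 502 were set aside. Gene sums of FPKM were taken as log2(FPKM + 1), and kept at 1 FPKM or more in at least 2 libraries. Limma 3.58.1 was fitted to all 8 libraries with genotype and line as terms and a variance trend (3 residual degrees of freedom), two-sided, with Benjamini-Hochberg adjustment over 14905 genes and a threshold of 0.05. The labels pair the libraries by cell line, so the line was the block. The fit was checked on simulated data. The members, lists and tests were chosen with earlier results of these data known.

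Named genes were the 10 members, up to 4 genes per list with the largest smaller ratio of both lines in a common direction, and the 3 nearest in pattern. A gene taken by this rule is not reported here. Levels printed for other list genes (CD48, TNFRSF13C, ITGA4, ITGAE, the ligands and the GPRC5, SLAM and plasma cell genes) were chosen after their values were seen. The 24 alternatives covered pseudocount, filter, scaling, block, controls, variance model, transcript sets, length weighting and each library left out. Added after seeing the data were a fit without the libraries labelled knockdown and a test of the difference of an effect between the lines, which pools the controls of each line and leaves 2 residual degrees of freedom.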

Additional observations from a re-analysis of the deposited data

Results flagged for a closer look

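The labelled-knockdown effect on GPRC5D differed in direction between the lines: the log2 ratio to the own control was 0.95 in ARP1 and -0.29 in H929, a difference of 1.24. The negative H929 value came from the form GPRC5D-202 (log2 ratio -2.22), while GPRC5D-203 had 0.03 and GPRC5D-201 had 1.66. Against each line's own control the difference itself was not tested. With both controls of a line pooled it was 2.05 (SE 0.66, limma adjusted p = 0.618) and did not pass.

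The overexpression effect on LY9 differed in the same way, with a log2 ratio of -0.86 in ARP1 and 0.46 in H929, a difference of -1.32. LY9 stood at 0.704 FPKM in the ARP1 overexpression library, against 2.09 in its control, and at 1.99 in the H929 overexpression library, against 1.17 in its control. With both controls of a line pooled the difference was -0.78 (limma adjusted p = 1), and against the own controls it was not tested.

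SDC1 in the ARP1 overexpression library, at 150.4 FPKM, stood apart from the other 3 ARP1 libraries, at 209 to 223 FPKM: its gap to the nearest was 0.835 of the whole range, above Dixon's critical value for 4 samples. Chance flags about 1 in 20 groups, and 20 groups were checked.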

How the results depend on the processing

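SLAMF7 and CD52 kept their direction and their call between ARP1 and H929 in all 22 alternatives run for each (log2 fold changes 3.81 to 6.23 and -3.10 to -2.03). GPRC5D, CD52 and SDC1 kept their direction for overexpression in all 24 alternatives, and none was called in any. Many of these alternatives could not change the direction. The overexpression value stayed the same by design with another filter, no line block, another variance model or only the libraries compared. Leaving out knockdown libraries, their controls, noncoding transcripts or short transcripts also left it the same. There only the call was tested. Between the lines, filter, variance model and transcript sets likewise could not change the direction. The 5 antigens called by line became 2 with no filter, 3 without the genotype term and 2 to 5 with each library left out. The 4035 genes called by line became 1948 to 4136 with each library left out. FCRL5 was called by line with coding transcripts alone (limma adjusted p = 0.0494, range 0.0494 to 0.25). All its transcripts are coding, so its own values were the same there, and only the other genes of the fit changed. It passed the filter on low values only through ARP1, the line where it was higher.

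For overexpression 1 gene called became 2 with no filter and 0 with both controls pooled, with the other control, with coding transcripts alone and with transcripts of at least 300 nt. It became 65 at 2-fold in both lines and 0 to 3 with each library left out. For knockdown 2 genes called became 1 with a pseudocount of 0.1 and with TPM-like scaling, and 5 with no trend. They became 0 at 5 FPKM or more, with no replicate block, with both controls pooled, with coding transcripts alone and with transcripts of at least 300 nt. They became 109 at 2-fold in both lines and 0 to 1005 with each library left out, and 0 to 1 antigens were then called. Between the controls 8 genes called became 5 with no filter, 2 with no replicate block, 4 with coding transcripts, 3 with transcripts of at least 300 nt, 14 without the libraries labelled knockdown and 0 to 14 with each library left out. For the overexpression effect minus the knockdown effect 2 genes called became 1 with a pseudocount of 0.1, 0 with no filter, with coding transcripts and with transcripts of at least 300 nt, and 0 to 49 with each library left out. Apart from leaving out libraries or genes, the cause was not tested.

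Signs turned only for values that had not been called. Between the lines CD38 became -0.037 with TPM-like scaling and -0.17 without the libraries labelled knockdown, and ITGB7 -0.037 with quantile scaling. In the knockdown comparison TNFRSF13B became 0.17 with both controls pooled and 0.81 with the other control, and CD38 -0.0022 and -0.036. With each library left out, the overexpression values ran from -0.33 to 0.61 for TNFRSF17, -0.61 to 0.35 for TNFRSF13B, -0.20 to 0.62 for CD38, -0.83 to 0.12 for FCRL5, -0.067 to 0.33 for ITGB7 and -0.65 to 0.25 for LY9. The knockdown values ran from -0.77 to 1.44 for GPRC5D, -0.38 to 0.45 for CD38, -0.97 to 0.015 for TNFRSF13B, -0.71 to 0.40 for CD52 and -0.15 to 0.30 for ITGB7, and the line values from -0.35 to 0.089 for LY9, -0.17 to 0.24 for CD38 and -0.010 to 0.20 for ITGB7. A lone library left by this was assumed to vary like the others. Leaving out the line block changed no call of an antigen in the CHEK1 comparisons.

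With 2 libraries per genotype and unknown read depth, levels under 1 FPKM, as for FCRL5 and SLAMF7 in H929, give no firm fold.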
